A study of Mus musculus with 8 samples.

Results

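The synaptic vesicle release machinery was examined in the hippocampus of mice exposed to benzo[a]pyrene (BaP), a polycyclic aromatic hydrocarbon formed when organic matter burns incompletely. The set holds 46 genes that were listed by symbol, and 45 of them had a tested probe among 15090 genes with one. *Syt5* was the exception, since no probe on the array could be matched to it. None of the 45 genes differed between BaP-exposed and control mice at an adjusted p of 0.05, and none changed by 1.5-fold with the processing used here. *Rph3a*, which encodes the vesicle protein rabphilin, was the only one whose BaP-exposed mice did not overlap the controls, and it was higher, where 2.72% of all genes were higher without overlap and 5.29% did not overlap in either direction. The genes with the lowest unadjusted p, *Syn2*, *Pclo* and *Erc2*, were lower on average, but their groups overlapped.

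All mice were adult Muta Mouse males, a transgenic strain made for mutation studies. The 4 control mice received the olive oil vehicle and the 4 BaP-exposed mice were gavaged on 3 days with BaP in olive oil, at a daily 70 mg/kg bw, and hippocampi were collected 24 hr after the last dose, at an age of 9 weeks at the start per the methods. The labels give 5 dosed mice in each group, of which 4 are in these data. Each hippocampal RNA was labeled with Cy5 and hybridized on a 2-color Agilent array against a Cy3-labeled universal RNA of mouse, the reference, and dyes were not swapped. The value given for a gene is the log2 ratio of hippocampus over reference at its brightest probe, so that a difference of 1 means 2-fold. Since the whole hippocampus was used, fewer cells of a type and less RNA per cell cannot be told apart.

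For 4 of the 8 arrays, those of control mice 3 and 4 and BaP-exposed mice 3 and 4, the sample title and the source name give opposite groups. The titles were used, with which the identification numbers of the mice agree. These 4 arrays fill slide row 2 and the other 4 fill slide row 1, so results without the arrays in doubt are those of slide row 1 alone. The 8 arrays had a median Cy5 spot signal of 108 to 174 over a background of 67 to 71. Outlier spots numbered 1483 on the array of control mouse 1 and 310 to 371 on the others, but no outlier or saturated spot fell on a probe that stood for a member. As to the hippocampal label, all 14 listed markers of excitatory hippocampal neurons were well above background on all 8 arrays. The 10 tested thalamus markers were so too, so detection alone does not tell hippocampus from neighboring tissue.

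A nerve terminal releases transmitter when vesicles docked at the active zone fuse with the plasma membrane. The SNARE proteins of the vesicle and of the plasma membrane zip together to drive fusion, synaptotagmins and related proteins sense the calcium that enters during an action potential, and active zone scaffolds hold primed vesicles beside calcium channels. Vesicles are filled by transmitter transporters, tethered by synapsins, and retrieved by dynamin and its partners after fusion. In the hippocampus, changes in release probability are one component of synaptic plasticity, which underlies learning and memory.

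BaP is a ligand of the aryl hydrocarbon receptor, which binds DNA at the core letters GCGTG, and this motif was therefore sought in the promoters of the members. RefSeq promoter windows (build GRCm38.p6) were at hand for 34 of the 46 members, in 44 windows. The 250 bases upstream of the start held GCGTG on either strand (CACGC on the other) in 23 of the 44 windows, or 52.3%, and in 28.2% of 32851 windows of all genes. The member windows also held more CG pairs, with a median of 11.5 against 6 over all windows, and the motif itself contains a CG. The cyclic AMP response element TGACGTCA, which also contains a CG and can share its end letters with GCGTG or CACGC, was in 1 of the 44 windows (2.27%) and in 1.55% of all windows. The upstream 250 bases are shown for *Rph3a*, the gene whose groups did not overlap, and for *Syn2*, *Pclo* and *Erc2*, the genes with the lowest unadjusted p. Each is written 5′ to 3′ on the strand of the gene, with GCGTG or CACGC in capitals, and the further windows of *Rph3a* and *Syn2* held neither.
*Rph3a* first window, chr5:121010093-121010342 (- strand): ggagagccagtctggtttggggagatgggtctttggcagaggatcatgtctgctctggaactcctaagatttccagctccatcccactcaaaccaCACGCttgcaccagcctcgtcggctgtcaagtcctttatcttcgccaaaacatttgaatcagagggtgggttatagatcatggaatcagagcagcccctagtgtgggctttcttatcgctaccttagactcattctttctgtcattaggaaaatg
*Syn2* first window, chr6:115134652-115134901 (+ strand): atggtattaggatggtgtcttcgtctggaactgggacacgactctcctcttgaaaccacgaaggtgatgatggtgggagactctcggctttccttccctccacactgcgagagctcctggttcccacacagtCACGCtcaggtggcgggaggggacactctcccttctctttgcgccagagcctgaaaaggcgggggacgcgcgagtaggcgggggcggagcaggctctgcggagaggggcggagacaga
*Pclo*, chr5:14514668-14514917 (+ strand): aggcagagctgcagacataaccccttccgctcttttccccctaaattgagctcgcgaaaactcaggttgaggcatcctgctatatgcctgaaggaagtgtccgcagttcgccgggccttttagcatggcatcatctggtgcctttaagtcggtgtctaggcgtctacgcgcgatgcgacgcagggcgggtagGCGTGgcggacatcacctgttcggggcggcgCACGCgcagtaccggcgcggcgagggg
*Erc2*, chr14:27622157-27622406 (+ strand): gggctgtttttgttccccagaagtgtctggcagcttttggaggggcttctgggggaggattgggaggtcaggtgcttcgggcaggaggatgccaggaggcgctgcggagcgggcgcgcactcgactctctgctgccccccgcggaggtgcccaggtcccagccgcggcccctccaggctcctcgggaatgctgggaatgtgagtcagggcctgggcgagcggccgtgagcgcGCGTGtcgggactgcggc
A match is a description of these letters and does not show binding.

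At its brightest probe, every one of the 45 members was above the reference in all 8 mice. The mean log2 ratio of the control mice ran from 0.57 for *Rims3* and *Erc1* to 8.87 for *Syt1*. In the Cy5 channel 43 members were well above background on all 8 arrays, while *Rims3* and *Sv2c* were so on 4 arrays each. In the reference channel 38 members were well above background on all arrays. The other 7, *Syt4*, *Syt12*, *Sv2c*, *Rims3*, *Slc17a6*, *Rims2* and *Pclo*, were not well above background in the reference on some or all arrays, which leaves the size of their ratio uncertain. For *Rims3* and *Sv2c* this held for both channels on some arrays.

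Over the 45 members, 31 had a log2 difference below 0 and 14 above 0, with a median of -0.04 and a range from -0.38 (*Unc13c*) to 0.29 (*Syn3*). Among all 15090 genes, 7551 were below 0 and 7539 above, with a median of -0.0001. With the deposited log2 ratios, and also with the Cy5 channel alone, 25 members were below 0 and 20 above. Without background correction 27 were below and 18 above, and with the scanner's processed signals 34 and 11. The split turned to 9 below and 36 above when the arrays were centered on their medians in place of loess, a scaling that moved the median of all genes to 0.21, and 30 members were below that median. In slide row 1 alone, the arrays whose labels are not in doubt, 21 members were below 0 and 24 above with a median of 0.01. In slide row 2 alone 35 were below and 10 above with a median of -0.15, and with the source names as groups 9 were below and 36 above with a median of 0.06. In the limma fit over all tested probes with Benjamini-Hochberg adjustment, 0 of 45 members passed an adjusted p of 0.05, where 0.0199% of all genes did. The lowest adjusted p at the members' brightest probes was 0.515. An unadjusted p of at most 0.05 was reached by 3 members in the lower direction (4.37% of all genes) and by 0 in the higher direction (5.07% of all genes). The groups did not overlap for 1 member that was higher (2.72% of all genes) and for 0 that were lower (2.56% of all genes). The 3 members with an unadjusted p of at most 0.05 (9.44% of all genes in either direction) became 9 without control mouse 1, 7 without BaP-exposed mouse 4, 6 without BaP-exposed mouse 1, 2 without control mouse 3 or BaP-exposed mouse 2, 1 without control mouse 2 or 4, and 0 without BaP-exposed mouse 3. Over all genes 5.36% to 12.3% had such a p with 1 mouse left out. The 1 member without overlap (5.29% of all genes in either direction) became 5 without BaP-exposed mouse 4, 4 without control mouse 3, 3 without control mouse 1 and 2 without BaP-exposed mouse 1 or 3. Over all genes the share without overlap was then 11.8%, 9.96%, 10.1%, 10.9% and 7.34%, in the same order of mice. Without control mouse 3, 23 members were below 0 and 22 above. A change of 1.5-fold or more was reached by 0 members and by 1.4% of all genes. It was reached by *Rims3* (-0.79) and *Syn3* (0.72) with the scanner's processed signals (5.22% of all genes), by *Unc13c* in slide row 1 alone (-0.74, 2.88% of all genes) and without BaP-exposed mouse 4 (-0.68, 2.58% of all genes), and by *Sv2b* (-0.71) in slide row 2 alone (3.4% of all genes).

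The precision of these differences can be read from their intervals. The standard error had a median of 0.12 on the log2 scale. For 37 of the 45 members the 95% interval of the difference lay within 1.5-fold in both directions. These intervals hold for the brightest probe, the titled groups and the processing used here. *Rims3* and *Pclo* are among these 37. With the scanner's processed signals *Rims3* was at -0.79 (standard error 0.72), and the second probe of *Pclo* was at -0.49 (standard error 0.14). The intervals of *Unc13c*, *Rims1*, *Rab3c*, *Syn2*, *Syn3*, *Sv2b*, *Sv2c* and *Slc17a6* reached beyond 1.5-fold, so a change of that size was not excluded by the data for these 8. With 4 mice against 4, the smallest p that a 2-sided exact permutation test can give is 0.0286. Groups of 4 that do not overlap always give this p. Wherever it is given below, it therefore adds nothing to the lack of overlap.

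**Figure D1:**
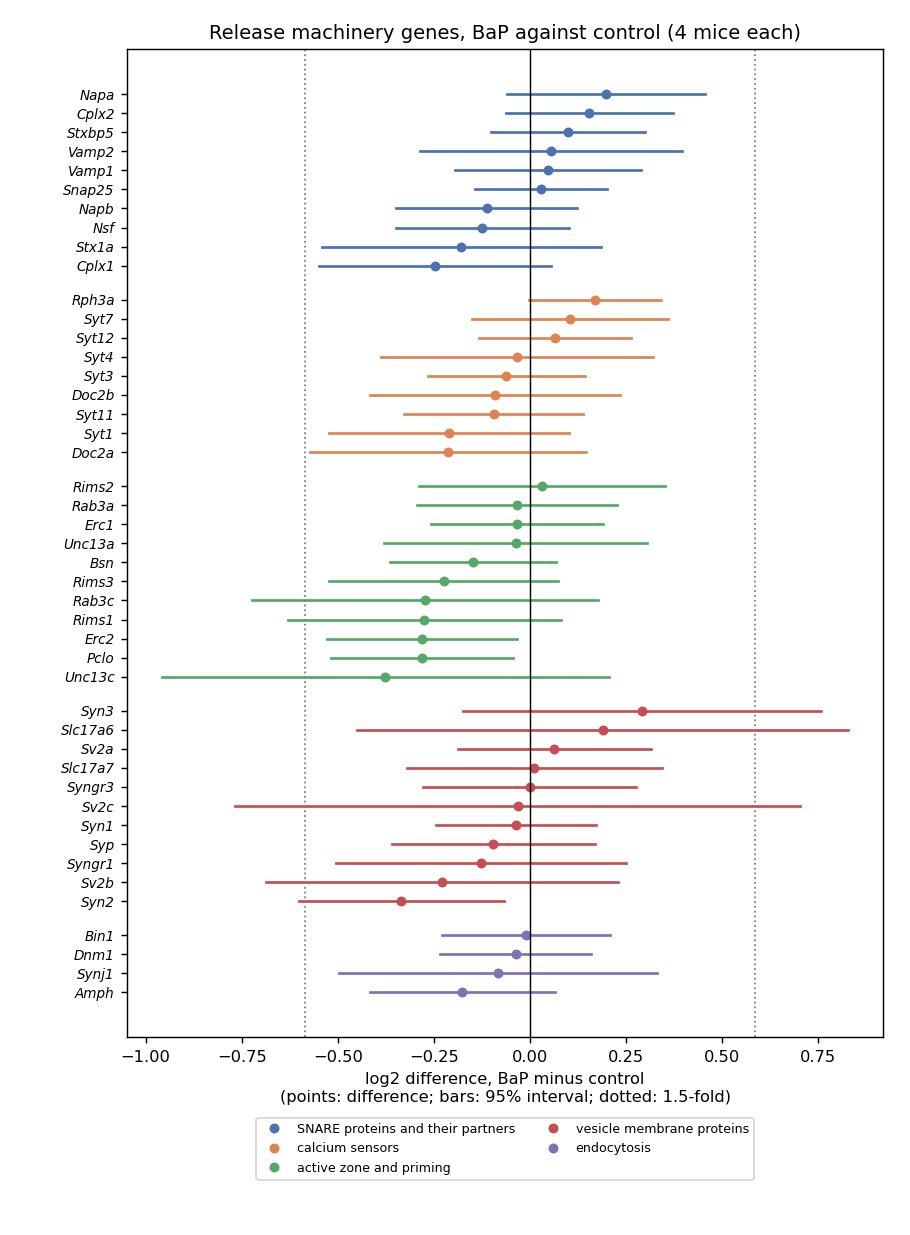
Log2 difference between 4 BaP-exposed and 4 control mice for the 45 members, grouped and colored by role. Points are differences, bars are 95% intervals from limma and dotted lines mark 1.5-fold. All points lie between the dotted lines, and 10 of the 11 active zone genes lie left of 0.

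The SNARE proteins and their partners were spread around 0, with 6 of 10 tested genes above 0, 4 below and a median log2 difference of 0.04. *Snap25*, the SNARE of the plasma membrane that contributes a pair of helices to the complex, had log2 ratios of 3.44, 3.41, 3.54 and 3.49 in the control mice and 3.51, 3.50, 3.38 and 3.58 in the BaP-exposed mice. The groups overlapped almost entirely. The difference was 0.03 (standard error 0.08, 95% interval -0.14 to 0.20, limma adjusted p = 0.939), an interval inside 1.5-fold with the processing used here. With median centering, which moved the median of all genes to 0.21, the difference was 0.29 (standard error 0.12).

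*Vamp2*, the main vesicle SNARE of forebrain synapses, was at 4.32, 4.28, 4.88 and 4.80 in the control mice and at 4.59, 4.79, 4.40 and 4.73 in the BaP-exposed mice. Control mice 1 and 2 lay below every BaP-exposed mouse and control mice 3 and 4 lay above every one. The difference of 0.05 (standard error 0.15, limma adjusted p = 0.939) was accordingly made up of 0.38 in slide row 1 and -0.28 in slide row 2. *Stx1a*, syntaxin of the plasma membrane, was at 2.42, 3.06, 2.94 and 2.99 in the control mice and at 2.74, 2.57, 2.39 and 2.98 in the BaP-exposed mice. Control mouse 1 was among the lowest and BaP-exposed mouse 4 among the highest, against the direction of their groups, and the difference was -0.18 (standard error 0.16, limma adjusted p = 0.761).

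The other SNARE partners are *Vamp1*, a vesicle SNARE, *Stxbp5* (tomosyn, an inhibitor of SNARE assembly), *Nsf*, *Napa* and *Napb*, which take spent SNARE complexes apart, and the complexins *Cplx1* and *Cplx2*, which clamp and then promote fusion. Their log2 differences ran from -0.25 for *Cplx1* to 0.20 for *Napa*, and their lowest limma adjusted p was 0.619. The complexins lay on opposite sides of 0, with *Cplx2* at 0.15 (standard error 0.10) and *Cplx1* at -0.25 (standard error 0.14). The attachment proteins likewise differed in sign, with *Napa* at 0.20 (standard error 0.12) and *Napb* at -0.11 (standard error 0.11). The differences between the paired genes were not tested.

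Among the calcium sensors and related C2-domain proteins, 3 of 9 tested genes were above 0 and 6 below, with a median of -0.06. *Syt1*, the fast calcium sensor of synchronous release, was at 8.72, 8.77, 8.99 and 8.98 in the control mice and at 8.78, 8.48, 8.36 and 8.99 in the BaP-exposed mice. BaP-exposed mice 2 and 3 were below all others, while BaP-exposed mice 1 and 4 lay within the control range. The difference was -0.21 (standard error 0.14, limma adjusted p = 0.670).

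*Rph3a* was at 3.98, 4.04, 4.06 and 4.01 in the control mice and at 4.11, 4.28, 4.26 and 4.11 in the BaP-exposed mice. Rabphilin is an effector of RAB3 on synaptic vesicles and binds phospholipids in a calcium-dependent way. All 4 BaP-exposed mice were above all 4 controls, and the gap between the highest control and the lowest BaP-exposed mouse was small beside the spread within the BaP-exposed mice. Groups of 4 against 4 mice without overlap always give an exact permutation p of 0.0286, 2-sided, as here. The difference was 0.17 (standard error 0.08, 95% interval -0.002 to 0.34), and limma's adjusted p over all probes was 0.577. It was 0.19 in slide row 1 alone, 0.15 in slide row 2 alone, 0.38 with the Cy5 channel alone and 0.33 with median centering, which moved the median of all genes to 0.21. The groups came to overlap with the scanner's processed signals, where the difference was 0.05, and with the source names as groups, where it was 0.02.

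The remaining sensors comprise *Syt3* and *Syt7*, which bind calcium with high affinity, *Syt4*, *Syt11* and *Syt12*, whose C2 domains are atypical in calcium binding, and *Doc2a* and *Doc2b*, linked to spontaneous and asynchronous release. Their differences ran from -0.21 (*Doc2a*) to 0.10 (*Syt7*), with limma adjusted p of 0.705 or more. *Doc2b* differed by -0.09 with a single low value of 4.86 in BaP-exposed mouse 4, and without that mouse the difference was 0.07. A second, dimmer probe of *Syt3* was lower in BaP-exposed mice without overlap over the 7 arrays with a value, at -0.21 (standard error 0.10, exact permutation p = 0.0857, limma adjusted p = 0.588), against -0.06 at the brightest probe.

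The active zone and priming genes were the group with the most negative median. Of 11 tested genes, 10 had a log2 difference below 0, the median was -0.23, 0 passed an adjusted p of 0.05 and 2 (*Pclo* and *Erc2*) were lower at an unadjusted p of at most 0.05, as were 4.37% of all genes. The exception in sign was *Rims2* at 0.03. In slide row 1 alone 8 of the 11 were below 0 with a median of -0.07, in slide row 2 alone all 11 were below 0 with a median of -0.27, and with the source names as groups 2 were below 0 with a median of 0.12. With median centering 6 were below 0 and the median was -0.01, against 0.21 for all genes. The median of the 11 genes was -0.12 without BaP-exposed mouse 2, -0.12 without BaP-exposed mouse 3 and -0.13 with the Cy5 channel alone. It was -0.15 with the mean over a gene's probes in place of the brightest, where neither *Pclo* nor *Erc2* had an unadjusted p of at most 0.05. The mean of the 11 genes by mouse overlapped between the groups, since control mouse 1 (-0.09) lay below BaP-exposed mice 1 (0.08) and 4 (0.01).

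*Pclo*, piccolo, is with *Bsn*, bassoon, one of the giant scaffolds of the active zone. *Pclo* was at 7.19, 7.55, 7.56 and 7.58 in the control mice and at 7.34, 7.18, 7.15 and 7.09 in the BaP-exposed mice. Control mice 2, 3 and 4 were above every BaP-exposed mouse, and control mouse 1 lay among them. The difference was -0.28 (standard error 0.11, limma adjusted p = 0.528), with an exact permutation p of 0.0571. The probe was well above background in the reference on 5 of 8 arrays. The difference was -0.11 in slide row 1 alone, -0.45 in slide row 2 alone and -0.13 with the Cy5 channel alone. It was 0.17 with the source names as groups. With median centering, which moved the median of all genes to 0.21, it was -0.04. Without control mouse 1 it was -0.37 and the groups did not overlap. Of the other 3 probes of *Pclo*, 2 were also lower, at -0.49 (standard error 0.14) and -0.13 (standard error 0.11). The remaining 1 was at 0.14 (standard error 0.14). The limma adjusted p of the probe at -0.49 was 0.496, below that of any member's brightest probe.

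*Erc2* encodes the active zone scaffold CAST, which binds RIM proteins and both giant scaffolds. *Erc2* was at 6.52, 6.78, 6.35 and 6.55 in the control mice and at 6.39, 6.40, 6.12 and 6.17 in the BaP-exposed mice. Control mouse 3 was the only control below a BaP-exposed mouse. The difference was -0.28 (standard error 0.11, limma adjusted p = 0.537), with an exact permutation p of 0.0857, while its second probe stood at -0.02 (standard error 0.19). The difference at the brightest probe was -0.26 in slide row 1 alone, -0.31 in slide row 2 alone and -0.18 with the Cy5 channel alone. It was -0.01 with median centering, which moved the median of all genes to 0.21, and 0.02 with the source names as groups.

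*Unc13c* (Munc13-3), a priming factor best known from the cerebellum, had the largest difference of any member at -0.38, and also one of the widest standard errors, 0.26. It was at 2.04, 1.80, 2.14 and 1.70 in the control mice and at 1.24, 1.11, 1.35 and 2.47 in the BaP-exposed mice. BaP-exposed mice 1, 2 and 3 were below every control, but BaP-exposed mouse 4 was the highest of all. The limma adjusted p was 0.682, and the difference was -0.74 in slide row 1 alone and -0.01 in slide row 2 alone.

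The other active zone genes are *Unc13a* (Munc13-1), the principal priming factor, the RIM scaffolds *Rims1*, *Rims2* and *Rims3*, *Bsn*, *Erc1* and the vesicle GTPases *Rab3a* and *Rab3c*. *Rims1* at -0.28 (standard error 0.16), *Rab3c* at -0.27 (standard error 0.20) and *Rims3* at -0.23 (standard error 0.13) were the lowest of them. The *Rims3* probe was well above background in the Cy5 channel of control mice 1, 2 and 3 and of BaP-exposed mouse 4 alone, so its difference rests in part on values at background. With probes well above background on all 8 arrays, which leaves out *Rims3*, 9 of the active zone genes were below 0 and their median was -0.21. *Unc13a*, *Erc1* and *Rab3a* lay between -0.04 and -0.03. The lowest limma adjusted p among these genes was 0.639.

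**Figure D2:**
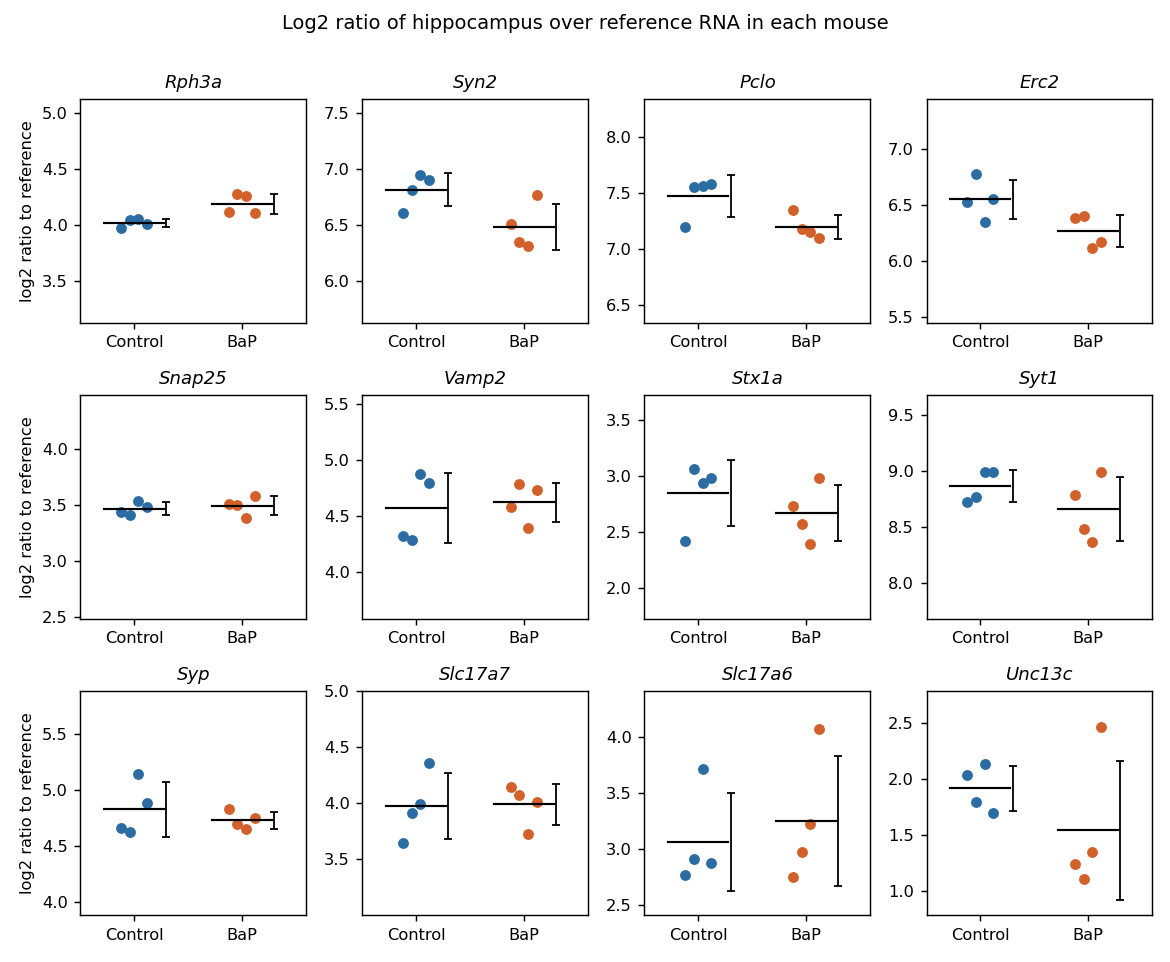
Log2 ratio of hippocampus over reference in each of 4 control and 4 BaP-exposed mice for 12 members. Points are mice, horizontal lines are group means, bars are 1 SD, and the vertical axes span at least 2 log2 units. The groups are apart for *Rph3a* alone, and *Slc17a6* and *Unc13c* each have single mice far from the rest.

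Vesicle membrane proteins had 4 of 11 tested genes above 0 and 7 below, with a median of -0.03. The synapsins, which coat vesicles and tie them into the reserve pool, did not share a direction. *Syn2* was at 6.61, 6.81, 6.95 and 6.91 in the control mice and at 6.51, 6.35, 6.31 and 6.77 in the BaP-exposed mice. BaP-exposed mouse 4 was above control mouse 1, and the other 3 BaP-exposed mice were below every control. At the brightest probes, the limma adjusted p of *Syn2*, 0.515, was the lowest among the members. The difference was -0.33 (standard error 0.12), with an exact permutation p of 0.0571. It was -0.28 in slide row 1 alone and -0.39 in slide row 2 alone, and a second probe stood at -0.30 (standard error 0.19). The difference was -0.19 with the Cy5 channel alone and 0.05 with the source names as groups. With median centering, which moved the median of all genes to 0.21, it was -0.04. *Syn1* differed by -0.04 (standard error 0.09) and *Syn3* by 0.29 (standard error 0.21), in the latter with control mouse 3 at 1.22 below all others. With the Cy5 channel alone, the difference of *Syn3* was -0.10.

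*Syp*, synaptophysin, the usual marker of synaptic vesicles, was at 4.66, 4.62, 5.15 and 4.88 in the control mice and at 4.83, 4.70, 4.65 and 4.75 in the BaP-exposed mice. The BaP-exposed mice lay inside the control range. The difference was -0.10 (standard error 0.12, limma adjusted p = 0.834), with 0.13 in slide row 1 alone and -0.32 in slide row 2 alone.

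Glutamate is loaded into vesicles by VGLUT1 (*Slc17a7*), the transporter of hippocampal principal neurons, and by VGLUT2 (*Slc17a6*), which in this region is mainly that of inputs from elsewhere. *Slc17a7* was at 3.64, 3.91, 4.00 and 4.36 in the control mice and at 4.14, 4.07, 3.73 and 4.01 in the BaP-exposed mice. All BaP-exposed mice again lay inside the control range, and the difference was 0.01 (standard error 0.15, 95% interval -0.32 to 0.34, limma adjusted p = 0.990). *Slc17a6* was at 2.76, 2.91, 3.71 and 2.87 in the control mice and at 2.75, 2.97, 3.22 and 4.07 in the BaP-exposed mice. Control mouse 3 and BaP-exposed mouse 4 stood above the rest of their groups, and the difference was 0.19 (standard error 0.29, limma adjusted p = 0.867). The mean of 10 thalamus markers was at -0.18 in control mouse 3 and at -0.01 in BaP-exposed mouse 4, relative to the mean of 8 mice, with a range over mice from -0.25 to 0.27, and its part in the *Slc17a6* values was not tested.

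Of the SV2 proteins, which are vesicle glycoproteins that aid priming, *Sv2a* was at 0.06 (standard error 0.11), *Sv2b* at -0.23 (standard error 0.21) and *Sv2c* at -0.03 (standard error 0.33). *Sv2c* was well above background on the arrays of control mice 2 and 3 and BaP-exposed mice 3 and 4 alone. The synaptogyrins, which are relatives of synaptophysin, stood at -0.13 (*Syngr1*, standard error 0.17) and at less than 0.01 in size (*Syngr3*, standard error 0.12). A dimmer probe of *Syngr1* from another transcript (NM_009303) was at -0.03, -0.21, -0.16 and -0.15 in the control mice and at -0.32, -0.38, -0.28 and -0.52 in the BaP-exposed mice. The groups did not overlap at this probe, whose difference was -0.24 (standard error 0.08, exact permutation p = 0.0286, limma adjusted p = 0.515). Among the 13 members with several tested probes, the probes agreed in sign for 10 and differed for 3.

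All 4 endocytosis genes were below 0, with a median of -0.06. *Dnm1*, the neuronal dynamin that pinches off endocytic vesicles, differed by -0.04 (standard error 0.09). *Synj1*, a lipid phosphatase that sheds the clathrin coat, differed by -0.08 (standard error 0.19). The membrane-bending proteins *Amph*, amphiphysin, and *Bin1*, its relative, differed by -0.18 (standard error 0.11) and -0.01 (standard error 0.10). The lowest limma adjusted p among these genes was 0.648.

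The level of the members was also compared from mouse to mouse. As a mean over the 45 members of the log2 ratio minus the gene's mean over 8 mice, the control mice stood at -0.11, 0.04, 0.16 and 0.04 and the BaP-exposed mice at 0.08, -0.13, -0.10 and 0.02. The groups overlapped in this mean, although BaP-exposed mouse 2 was below every control and control mouse 3 was above every BaP-exposed mouse. Control mouse 3 was the highest of the 8 mice for 17 members, and BaP-exposed mouse 3 was the lowest for 12. Control mouse 1 was below the 8-mouse mean for 35 members, much like BaP-exposed mouse 2 with 34 and BaP-exposed mouse 3 with 33, and BaP-exposed mouse 1 was above it for 35.

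**Figure D3:**
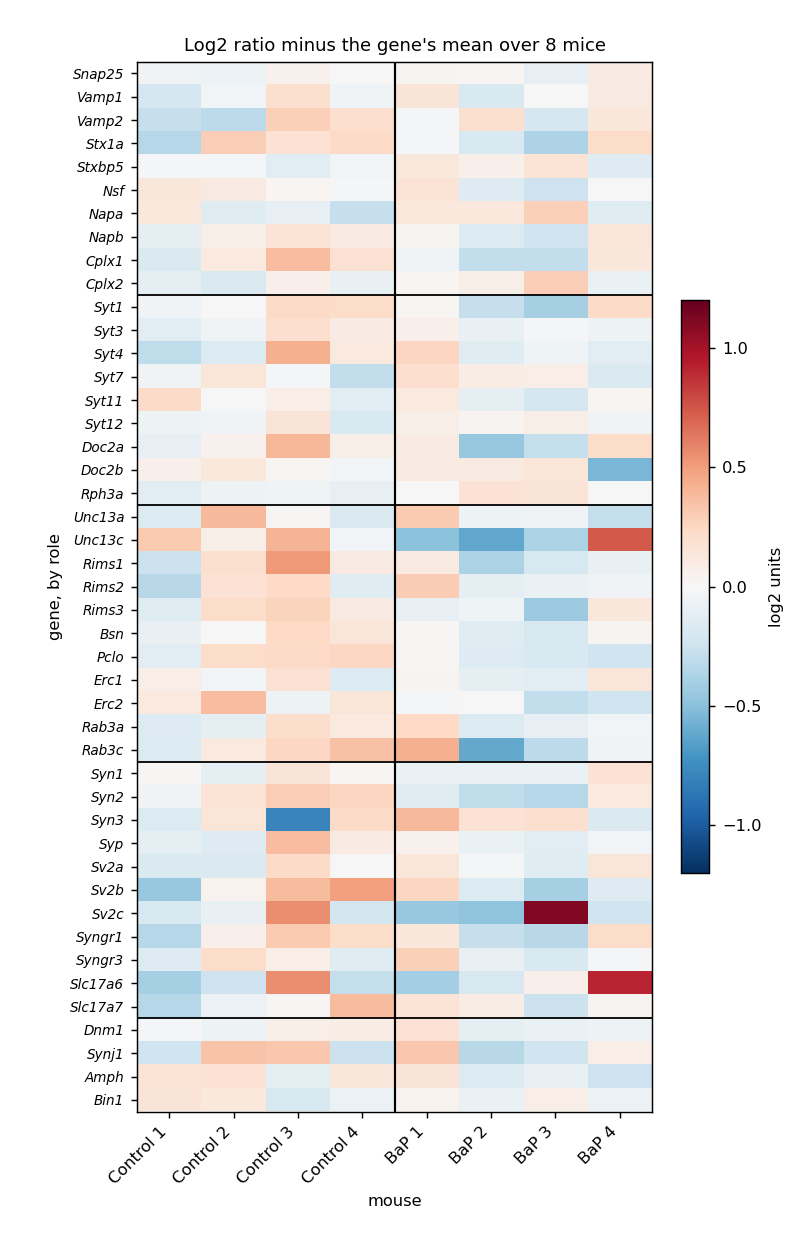
Log2 ratio of each member in each mouse, minus the mean of that gene over the 8 mice (red above, blue below, log2 units). Rows are genes in the order of their roles, separated by lines, and columns are mice. Control mouse 3 and BaP-exposed mouse 1 are mostly red, and control mouse 1 and BaP-exposed mice 2 and 3 mostly blue.

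Members varied together from mouse to mouse on average, but not all of them did. After the group means were removed, the mean Pearson r over 990 pairs of members was 0.197, against 0.00751 over all tested genes. The mean r was larger in the classes of genes more enriched over the reference. Over all genes with a mean log2 ratio of 0 to 2, which hold 9 members, it was 0.0173, and over those of 2 to 4, with 14 members, it was 0.0657. Over those of 4 to 6, with 15 members, it was 0.144, and over those of 6 to 12, with 7 members, it was 0.215. In the Cy5 channel alone the members had a mean r of 0.154 and the 4 classes had 0.0156, 0.0133, 0.0325 and 0.0412. By role, the mean r was 0.344 among active zone genes and 0.0683 among SNARE proteins and their partners. This order changed in the Cy5 channel alone, where vesicle membrane proteins had the highest mean r (0.348), active zone genes had 0.254, and calcium sensors had the lowest (-0.0136). These correlations are across the same 8 arrays, which share 1 slide and 1 reference, and are given as descriptions. *Rims1* (r = 0.97), *Vamp1* (r = 0.95) and *Syngr1* (r = 0.91) followed the mean of the other members most closely over the 8 mice. The most negative r were those of *Bin1* (r = -0.55), *Napa* (r = -0.54) and *Stxbp5* (r = -0.41). Further members also had a negative r, among them *Rph3a* (r = -0.36) and *Erc2* (r = -0.19).

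Cell type markers were set beside these values. In a list of 13 neuron markers, 11 were below 0 with a median log2 difference of -0.10, and by mouse the list stood at -0.07, 0.06, 0.12 and 0.17 in the controls and at 0.06, -0.13, -0.22 and 0.00 in the BaP-exposed mice. BaP-exposed mice 2 and 3 were thus the lowest for neuron markers as well as for the active zone genes. The 14 markers of excitatory hippocampal neurons did not follow that order. Of them 8 were above 0 with a median of 0.10, and by mouse the list stood at -0.04, -0.07, -0.08 and -0.19 in the controls and at 0.22, 0.24, 0.02 and -0.11 in the BaP-exposed mice, so that mouse 2 was the highest of the 8 and mouse 3 lay above every control. Of 11 oligodendrocyte markers, 8 were above 0 with a median of 0.09, and BaP-exposed mice 2 (0.32) and 3 (0.14) were the highest of the 8 mice. All 9 choroid plexus markers were above 0 with a median of 0.83, and by mouse the list stood at 0.12, -0.95, 0.49 and -1.22 in the controls and at -1.69, 1.13, 1.56 and 0.57 in the BaP-exposed mice. BaP-exposed mice 2 and 3 were the highest of the 8 for this list too, and BaP-exposed mouse 1 was the lowest. All 7 astrocyte markers were below 0 with a median of -0.13. All 5 erythroid markers were below 0 without overlap, with a median of -0.94, and 2 of them passed an adjusted p of 0.05 in limma. This list stood at 0.38 to 0.59 in control mice and at -0.70 to -0.34 in BaP-exposed mice. The part of cell composition and of blood in the members' values was not tested.

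**Figure D4:**
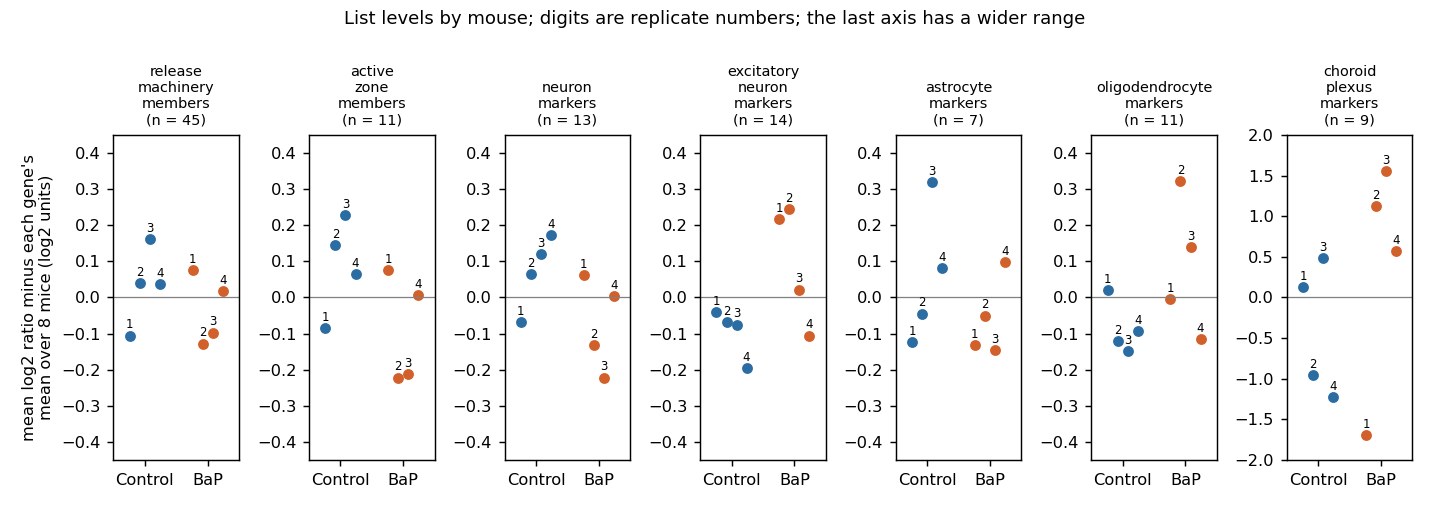
Mean log2 ratio over each list minus each gene's mean over 8 mice, in log2 units, for control and BaP-exposed mice (digits are replicate numbers). BaP-exposed mice 2 and 3 are the lowest for active zone genes and neuron markers and the highest for oligodendrocyte markers. They are also the highest for choroid plexus markers, whose axis spans a wider range than the others.

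A further 138 genes of release and recycling were listed by the same roles, and 132 had a tested probe. Of these, 59 were above 0 and 73 below, with a median of -0.01, and 0 passed an adjusted p of 0.05 in limma, where 11 had an unadjusted p of at most 0.05, 5 higher and 6 lower. The groups did not overlap for 2 that were higher and 4 that were lower. Over all genes 9.44% had such a p in either direction and 5.29% did not overlap, beside 4.55% of the list without overlap. Among the 6 without overlap, *Syt6*, a synaptotagmin, had the largest difference, at 2.48, 2.59, 2.62 and 2.48 in the control mice and 2.28, 1.59, 2.08 and 2.35 in the BaP-exposed mice. All 4 BaP-exposed mice lay below all 4 controls, by -0.47 on average (standard error 0.15, exact permutation p = 0.0286, limma adjusted p = 0.498).

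*Syt9*, a calcium sensor of fast release in some neurons, was lower without overlap, at -0.33 (standard error 0.12, limma adjusted p = 0.519). This was over 7 arrays since the spot of control mouse 1 was an outlier. Its probe was well above background in the reference on 2 of 8 arrays, which leaves the size of its ratio uncertain. *Scamp4*, a vesicle carrier protein, was lower at -0.20 (standard error 0.08, limma adjusted p = 0.545). *Ppfia4*, a liprin of the active zone, was lower at -0.19 (standard error 0.07, limma adjusted p = 0.537). The genes that were higher were *Rab3gap1*, a catalytic regulator of RAB3, at 0.30 (standard error 0.10, limma adjusted p = 0.512), and *Atp6v1a*, a subunit of the proton pump that energizes vesicle filling, at 0.19 (standard error 0.08, limma adjusted p = 0.544). Of the 24 active zone and priming genes in the wider list, 9 were above 0 and 15 below, with a median of -0.02, against 1 and 10 and a median of -0.23 among the members.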

How the data were processed

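Hippocampal RNA of 8 mice was measured on 8 two-color arrays of 1 slide. For each spot the authors deposited the Cy5 and Cy3 intensity (Agilent Feature Extraction, per the labels). They also deposited log2 ratios, normalized by LOWESS according to the methods. The table had 0 columns that could not be assigned to a mouse.

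From the deposited spot medians, background was corrected with normexp (offset 50) (limma 3.58.1, R 4.3.3). Control spots were then dropped, outlier spots treated as missing, ratios normalized by loess within each array, and repeated spots averaged. Of 55681 probes, 32600 were well above background in the Cy5 channel of at least 4 arrays and were tested (lmFit and eBayes of limma, Benjamini-Hochberg adjustment over all). The study's test, an analysis of variance for microarrays, was not at hand. Exact permutation tests were 2-sided over the arrangements of the arrays with a value. Tables were made in Python 3.11.15 with pandas 2.3.3 and numpy 2.4.6.

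Probes were named through RefSeq accessions and a gene table of GRCm38.p6 (27235 of 28685 probes with an accession, 94.9%), used for names alone. The brightest Cy5 probe stood for a gene. The members, the other release and recycling genes, the marker lists and the tests were chosen with earlier results of these data known. Values of every mouse were given for members without overlap, for members with an adjusted p of at most 0.05 or a log2 difference of 0.58 or more, and for 7 core genes. Those of *Syn2*, *Pclo*, *Erc2* and *Unc13c*, and the dimmer probes, were added after the values were seen. Wider-list genes are the 5 with the largest differences among those without overlap, and *Ppfia4*, added after its values were seen.

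The fit was tested on simulated data. Other alternatives covered background, normalization, the deposited log2 ratios, filters, Cy5 alone, blocks, labels, variances, probes and each mouse left out. Precision is limited by the 8 arrays and by low signal over background at dim probes.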

Additional observations from a re-analysis of the deposited data

Results flagged for a closer look

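In 103 groups of 4 mice, 1 sample stood far from the other 3 in 7, where about 5.15 would do so by chance, and the causes were not tested. The measure is the gap to the nearest other mouse as a share of the range of the group. *Doc2b* was low in BaP-exposed mouse 4 (4.86, others 5.51 to 5.55, share 0.941). *Pclo* was low in control mouse 1 (7.19, others 7.55 to 7.58, share 0.925). *Syn1* was high in BaP-exposed mouse 4 (3.96, others 3.71, share 0.994). *Sv2c* was high in BaP-exposed mouse 3 (1.73, others 0.14 to 0.38, share 0.847). *Slc17a6* was high in control mouse 3 (3.71, others 2.76 to 2.91, share 0.848). *Amph* was low in control mouse 3 (5.50, others 5.75 to 5.79, share 0.868). *Atp6v1a* was high in control mouse 3 (2.43, others 2.26 to 2.28, share 0.842). The Cy5 signal of *Slc17a6* was 2.93 above the median of the array in control mouse 3 and 1.69 to 1.99 in the other controls, while its Cy3 signal was -0.53 there and -0.96 to -0.62 in the others, all on the log2 scale.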

How the results depend on the processing

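Under 25 alternatives, 0 members and 0 of the other release and recycling genes passed an adjusted p of 0.05. *Rph3a* came to overlap with the processed signals (0.05) and the source names (0.02). Leaving out mice, single slide rows, blocks, variance options and filters could not make its groups overlap, since they leave the mice's values as they are. The members past 1.5-fold (0) became 2 with the processed signals (5.22% of all genes) and 1 in slide row 1 alone (2.88%), in slide row 2 alone (3.4%) and without BaP-exposed mouse 4 (2.58%). Counts at an unadjusted p of at most 0.05 and of genes without overlap moved, and the causes were not tested. Loess followed by quantile normalization of average intensities leaves ratios as they are and gave identical values. Dim probes and 4 mice per group limit what can be seen.

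For members that were lower at that p (3), the count was 1 with the scanner's processed signals (3.37% of all genes), without background correction (3.8%) and with Cy5 alone (2.8%), and 0 with median centering (0.278%), the source names (2.1%) and the mean over probes (3.93%). For members that were higher (0), it was 1 without background correction (6.08% of all genes), with the deposited log2 ratios (5.73%), Cy5 alone (5.44%), slide row 1 alone (3.31%), no moderation of variances (4.71%) and the mean over probes (5.1%), 4 with the source names (2.39%) and 6 with median centering (22.5%). Without overlap and higher (1), it was 0 with the processed signals (2.63% of all genes) and the source names (1.74%) and 2 with Cy5 alone (3.29%). In slide row 1 alone (2 mice a group) 6 members were lower and 12 higher without overlap, and in row 2 alone 14 and 2. Over all genes 19.8% were lower and 20.1% higher without overlap in row 1 alone, and 19.9% and 18.7% in row 2 alone. The median of the members was 0.15 with median centering.

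The shares of all genes just given hold beside the next counts too. For the other genes that were lower at that p (6), the count was 0 with median centering and 2 with Cy5 alone. For those that were higher (5), it was 28 with median centering, 9 with the source names, 2 with Cy5 alone and slide row 1 alone, and 1 with the mean over probes. Lower without overlap (4), it was 1 without background correction (2.33% of all genes) and with the deposited ratios (2.61%), 0 with median centering (0.186%) and the source names (0.895%), and 2 with Cy5 alone (1.69%). Higher without overlap (2), it was 4 without background correction (3.34% of all genes), 11 with median centering (10.04%) and 1 with the mean over probes (2.9%). In row 1 alone 17 were lower and 22 higher without overlap, and in row 2 alone 37 and 15, of 132, beside the same shares of all genes. Their median was 0.23 with median centering, with all genes at 0.21.

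With each mouse left out, members lower at that p numbered 0 to 8 and higher 0 to 2. Those lower without overlap numbered 0 to 2 and those higher 1 to 3, and the median ran from -0.13 to -0.004. Over all genes 3.35% to 5.35% were then lower and 3.31% to 6.41% higher without overlap, and 2.81% to 5.38% were lower and 2.55% to 7.67% higher at that p. For the other genes these ranges were 3 to 12, 1 to 7, 4 to 9 and 2 to 6, with medians from -0.02 to 0.01.

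With the replicate number as a block, 2 members had that p and were lower, and 2 other genes were lower and 2 higher (3.39% of all genes lower, 4.54% higher). Mice of equal number did not deviate together (r of -0.354, 0.0313, -0.00716 and -0.00662 over 32002 probes), so the numbers were not taken to pair them. Of the single members' values, 1043 stayed within their spread, 78 moved further and 2, those of *Rph3a*, came to overlap. Quantile normalization after loess, the filters on dim probes, the blocks and the variance options leave a member's log2 difference as it is. Their values are among the 1043 and say nothing about stability. A value within its spread also includes changes of sign, as for *Slc17a7*, from 0.01 to -0.09 with the scanner's processed signals.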
